A study of Mus musculus with 16 samples.

Results

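The metabotropic glutamate receptors are G-protein-coupled receptors for glutamate, and the genes described are Grm2, Grm3, Grm4, Grm5, Grm7 and Grm8. They were taken by symbol, as 6 of the 55335 Ensembl genes in a table of RNA-seq read counts from mouse primary forebrain neurons. The choice by symbol used no expression value as a filter, but it was made with earlier results of these data known. All 6 passed the filter on low counts that left 19479 genes for testing. Grm6, of the same family, is given for context.

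Total RNA depleted of ribosomal RNA was sequenced from perinatal mouse forebrain neurons kept in culture and transduced with lentiviral vectors. There were 16 libraries in 4 groups of 4, so the controls too carried a vector. One group carried a vector without a hairpin (Empty_Vector, the empty vector). Another carried a vector for a short hairpin RNA (shRNA, the unmutated hairpin), an RNA that cells process into a small interfering RNA against a chosen transcript. The remaining groups carried that hairpin with 2 point mutations (shRNA_2bp, the 2-mutation hairpin) or with 5 (shRNA_5bp, the 5-mutation hairpin). The labels give no mouse strain, age beyond perinatal, day of culture, hairpin sequence or target. Separate cultures are not mentioned, so each p-value speaks only to the spread among these libraries, which may be technical.

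Mammals have 3 groups of these receptors. Group I, to which mGlu5, the product of Grm5, belongs, sits mostly on the postsynaptic side around excitatory synapses and acts through Gq proteins and phospholipase C, which release calcium from internal stores. Group II (Grm2 and Grm3) and group III (Grm4, Grm6, Grm7 and Grm8) act through Gi/o proteins, which lower cyclic AMP, and many of them sit on presynaptic terminals, where they restrain transmitter release. Grm3 and, early in life, Grm5 are also made by astrocytes, and Grm6 is known from the ON bipolar cells of the retina. These receptors tune the strength of glutamatergic synapses in the forebrain, and group I receptors are known for a form of long-term synaptic depression.

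Library totals ran from 33795369 to 49824569 counts, and replicate libraries of a group differed by more than counting noise. Replicate 2 of the 5-mutation hairpin held the largest differences from the others of its group (chi-square per degree of freedom 12.17 to 24.45, against 3.484 to 12.73 for all other pairs), and results are also given without it. Markers of neurons dominated: 6 pan-neuronal markers summed to between 3971 and 4839 CPM (counts-per-million, TMM-scaled) in every library, and markers of excitatory and inhibitory neurons and of astrocytes were also measured. Of the pan-neuronal markers none was called higher and 5 lower with the unmutated hairpin. Sums in that group, 3971 to 4248 CPM, lay below those of the empty vector, 4563 to 4839 CPM. With the 2-mutation hairpin 2 were called higher and 3 lower, and with the 5-mutation hairpin 2 and 2. There Rbfox3 was at 30.6 to 32.6 CPM (control 148 to 154) and Elavl4 at 132 to 150 CPM (control 95.5 to 105). Over all genes 40.3%, 63.3% and 54.9% were called in the same order. Markers of microglia and of endothelium summed to at most 3.69 and 1.36 CPM. The 6 measured markers of the oligodendrocyte lineage summed to 50.5 to 61.7 CPM with the empty vector and, without overlap, to 76.9 to 95.7, 39.5 to 45.1 and 76.7 to 94.1 CPM with the unmutated, 2-mutation and 5-mutation hairpins. Of these markers 4 were called higher and none lower with the unmutated hairpin, and none higher and 2 lower with the 2-mutation hairpin. With the 5-mutation hairpin 1 was called higher and 2 lower, beside the same shares over all genes. There Mbp was at 63.4 to 76.0 CPM (control 23.3 to 28.9), Olig1 at 6.08 to 11.6 CPM (control 13.4 to 24.4) and Olig2 at 1.33 to 2.45 CPM (control 4.28 to 6.24). The part of these markers in the receptors' changes was not tested. The labels name no target for the hairpin. Rtn4, singled out after its values were seen, had log2 fold changes of −4.82, −2.77 and −0.06 against the empty vector for the unmutated, 2-mutation and 5-mutation hairpins.

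The receptor transcripts did not move as a family. Grm5 and Grm3 fell with every hairpin and furthest with the 2-mutation hairpin, whereas Grm2 and Grm8 rose about 3-fold with the 5-mutation hairpin and did not pass the test with either of the others. Grm4 rose with both mutated hairpins, and Grm7 fell with the 5-mutation hairpin. Tests are edgeR's quasi-likelihood test over all genes, called at a Benjamini-Hochberg adjusted p below 0.05. Against the empty vector, 2 of the 6 members were called with the unmutated hairpin, both lower, beside 40.3% of all genes tested (20.8% higher and 19.5% lower). For the 2-mutation hairpin 1 member was called higher and 2 lower, beside 63.3% of all genes (32.5% higher and 30.8% lower). For the 5-mutation hairpin 3 were called higher and 3 lower, beside 54.9% of all genes (28.4% higher and 26.5% lower). The members' median log2 fold changes were −0.13, −0.24 and −0.04 in the same order, beside 0.01, −0.01 and 0.03 over all genes. With calls this common across the transcriptome, the number of receptors called is not in itself a result about the receptors. The 3 comparisons share the empty-vector libraries.

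**Figure D1:**
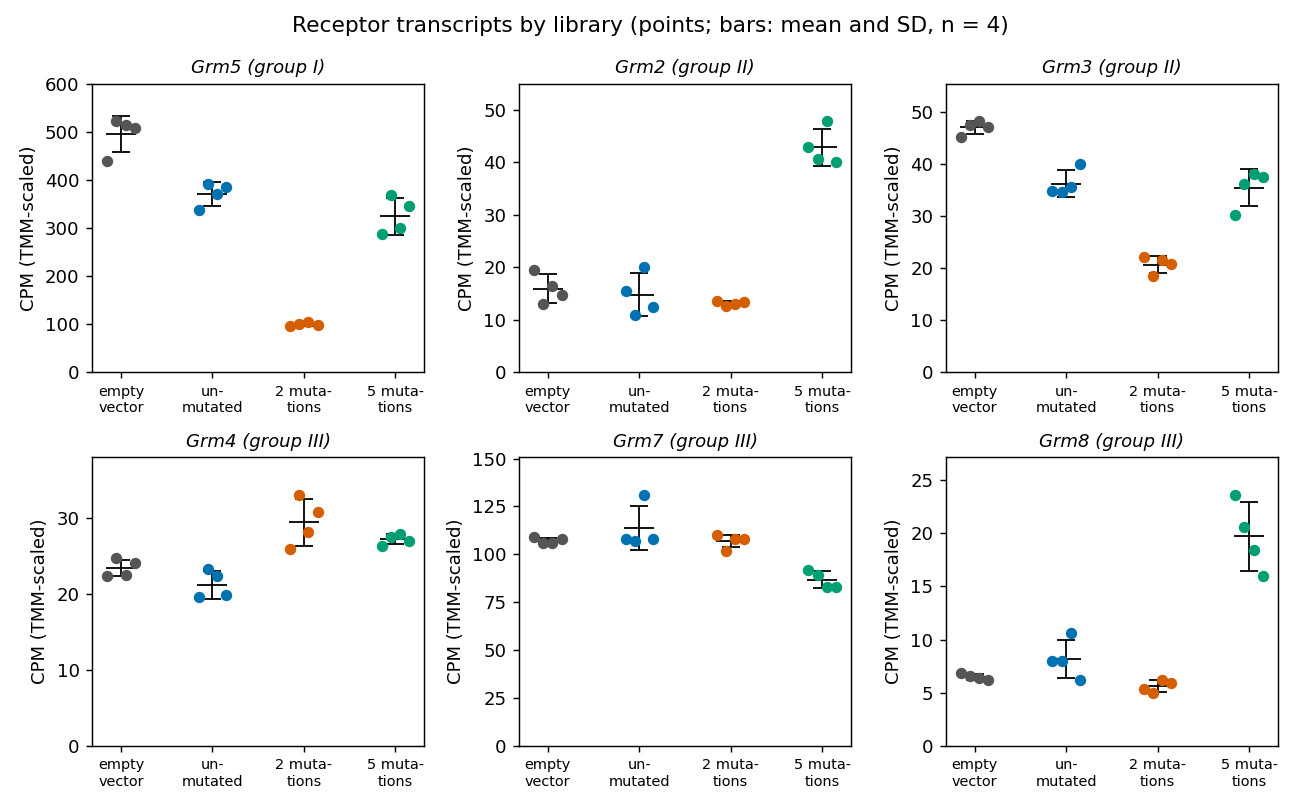
Level of each receptor transcript in each library (TMM-scaled CPM, linear axes that start at 0 and differ between panels), with points for the 4 libraries of each group and bars for the mean and SD. Grm5 sat between 97.0 and 105 CPM with the 2-mutation hairpin and between 287 and 523 CPM in all other libraries, and Grm2 and Grm8 were highest in all 4 libraries of the 5-mutation hairpin.

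Grm5 encodes mGlu5, the main group I receptor of forebrain neurons, and was the most abundant of the receptor transcripts with the empty vector. The gene (ENSMUSG00000049583.15) lies on GRCm38 chromosome 7 from 87584168 to 88134907 on the plus strand, with 13 merged exons of 10247 nucleotides in all. Its levels in the empty-vector libraries were 441, 523, 515 and 508 CPM, from 15378 to 23306 counts. With the unmutated hairpin they were 337, 392, 371 and 385 CPM. In the 2-mutation group they were 97.0, 100, 105 and 98.9 CPM, and with the 5-mutation hairpin 287, 369, 300 and 346 CPM. Each hairpin's libraries lay wholly below those of the empty vector, and those of the 2-mutation hairpin lay wholly below all others. Means were 497 ± 37.4, 371 ± 24.7, 100 ± 3.32 and 325 ± 38.4 CPM (SD, n = 4). The log2 fold change was −2.31 ± 0.07 with the 2-mutation hairpin (SE; edgeR adjusted p = 1.75e-15), a 4.96-fold lower level and the 322nd lowest of 19479 fold changes. It was −0.42 ± 0.07 (adjusted p = 8.85e-05) with the unmutated and −0.61 ± 0.07 (adjusted p = 4.66e-07) with the 5-mutation hairpin, and −0.68 for the latter without replicate 2.

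Between hairpins, Grm5 was lower with the 2-mutation than with the unmutated hairpin (log2 fold change −1.89, edgeR adjusted p = 2.87e-14) and than with the 5-mutation hairpin, where the 5-mutation level was higher by 1.70 (adjusted p = 9.54e-14). The unmutated and 5-mutation libraries overlapped. The value between them was −0.19 (adjusted p = 0.0291), and that call was lost under upper-quartile scaling (adjusted p = 0.0708) and on leaving out any of 5 single libraries.

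**Figure D2:**
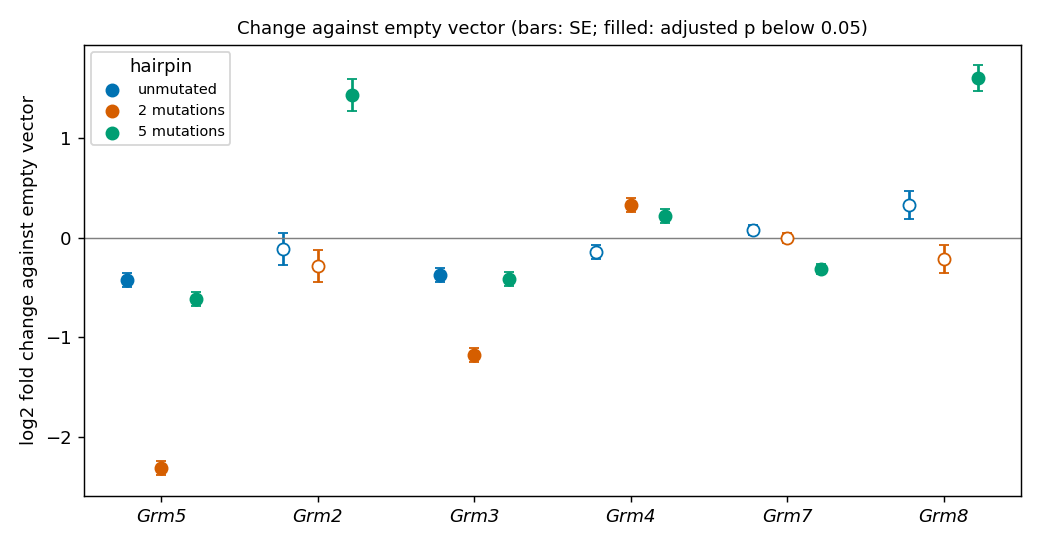
Log2 fold change of each receptor transcript against the empty vector for the 3 hairpins, with bars for the SE from the fit over 16 libraries and filled points for an adjusted p below 0.05. Grm5 stands at −2.31 with the 2-mutation hairpin, and Grm2 and Grm8 stand at 1.43 and 1.60 with the 5-mutation hairpin.

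A set of 5 unspliced annotation entries lie inside introns of Grm5 on its own strand without touching its exons (Gm44926, Gm44927, Gm44848, Gm44847 and Gm44846). They gave a measure of intronic reads of the locus, and were chosen after their values were seen. Their summed level was 16.8, 19.0, 14.0 and 13.0 CPM with the empty vector and 8.35, 12.0, 10.9 and 10.5 CPM with the unmutated hairpin. It was 6.74, 7.42, 8.61 and 6.06 CPM with the 2-mutation hairpin and 14.2, 30.1, 10.2 and 18.0 CPM with the 5-mutation hairpin. The unmutated and 2-mutation libraries lay wholly below the empty vector, while the 5-mutation libraries overlapped it. The intronic level differed on the log2 scale by −0.59 with the unmutated and −1.12 with the 2-mutation hairpin. Each had an exact permutation p of 0.0286, the smallest that 4 libraries against 4 allow, and 0.0429 adjusted over the 3 comparisons. With the 5-mutation hairpin the difference was 0.11 (exact permutation p = 0.771), and −0.17 (exact permutation p = 0.629) without replicate 2, so its direction rests on that library. Tested singly in edgeR, only Gm44926 was called lower with the unmutated hairpin (adjusted p = 0.0192). Gm44846 and Gm44847, the entries with most reads, did not pass there (adjusted p = 0.076 and 0.194). With the 2-mutation hairpin all but Gm44848 were called lower, and with the 5-mutation hairpin no entry was called. Over all genes 19.5% were called lower with the unmutated and 30.8% with the 2-mutation hairpin.

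The ratio of exonic to intronic Grm5 counts was 32.4 ± 6.48 with the empty vector and 35.9 ± 3.4 with the unmutated hairpin. It was 14.1 ± 1.74 for the 2-mutation and 20.2 ± 7.03 for the 5-mutation hairpin (SD, n = 4). The 2-mutation libraries (12.2 to 16.3) lay wholly below those of the empty vector (26.2 to 39.2), a log2 difference of −1.19 with an exact permutation p of 0.0286, or 0.0857 adjusted over the 3 comparisons. The ratio therefore did not pass after adjustment, and this design allows no smaller p for a single comparison. The log2 differences were 0.17 (exact permutation p = 0.314) with the unmutated and −0.72 (exact permutation p = 0.0857) with the 5-mutation hairpin, the latter −0.51 without replicate 2. Unspliced entries of this annotation class over the whole genome made up 0.266 ± 0.0353% of the empty-vector counts. They made up 0.235 ± 0.0181%, 0.191 ± 0.018% and 0.258 ± 0.0802% for the unmutated, 2-mutation and 5-mutation hairpins (SD, n = 4). Their share was highest, 0.368%, in replicate 2 of the 5-mutation hairpin, the library with the most intronic Grm5 reads, and its part in these ratios was not tested.

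**Figure D3:**
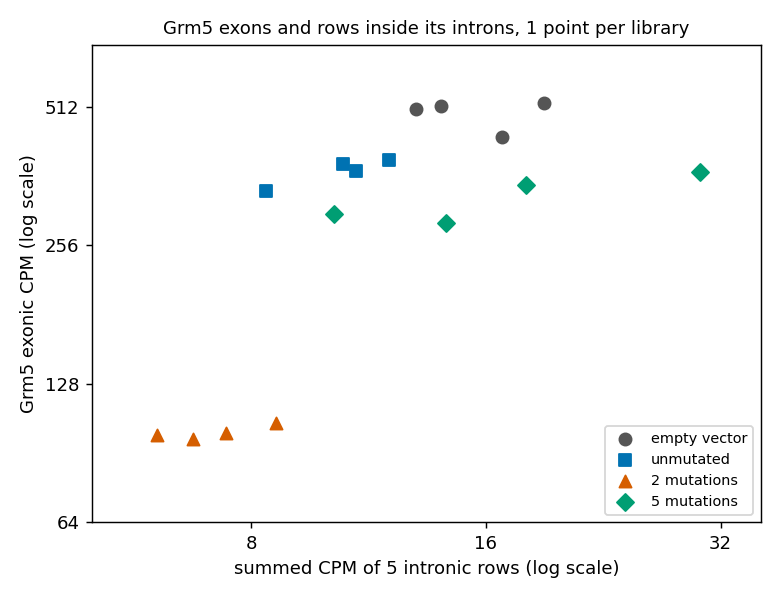
Grm5 exonic level against the summed level of 5 intronic entries of the locus in each library (CPM, log axes), with 1 point for each library. The 2-mutation libraries are low on both axes, at most 8.61 CPM intronic and 105 CPM exonic, and replicate 2 of the 5-mutation hairpin has the highest intronic level, 30.1 CPM.

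Grm2 and Grm3 form group II. Grm2 encodes mGlu2, a presynaptic autoreceptor of excitatory terminals. The gene (ENSMUSG00000023192.12) lies on chromosome 9 from 106643095 to 106656082 on the minus strand. It was measured at 19.5, 13.0, 16.4 and 14.6 CPM with the empty vector and 15.5, 10.8, 20.1 and 12.3 CPM with the unmutated hairpin. In the 2-mutation group it was at 13.5, 12.6, 13.0 and 13.3 CPM, and with the 5-mutation hairpin at 42.8, 40.6, 47.8 and 40.0 CPM. The first 3 groups overlapped, and the 5-mutation libraries stood wholly above all of them. Grm2 rose 2.7-fold with the 5-mutation hairpin, with 1.43 ± 0.16 on the log2 scale (SE; edgeR adjusted p = 1.51e-06), or 1.46 without replicate 2, and 3.27% of all genes had a rise at least as large. It was also 1.55 higher than with the unmutated hairpin (adjusted p = 6.82e-07) and 1.71 higher than with the 2-mutation hairpin (adjusted p = 1.37e-07). With the unmutated and the 2-mutation hairpin its log2 fold changes were −0.11 ± 0.16 (adjusted p = 0.622) and −0.28 ± 0.16 (adjusted p = 0.155).

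Grm3 encodes mGlu3, made by neurons and astrocytes, and fell with every hairpin, as Grm5 did and Grm2 did not. The gene (ENSMUSG00000003974.6) lies on chromosome 5 from 9485541 to 9725170 on the minus strand. Its levels were 45.2, 47.6, 48.3 and 47.2 CPM with the empty vector and 34.9, 34.6, 35.7 and 40.1 CPM with the unmutated hairpin. They were 22.2, 18.4, 21.5 and 20.8 CPM with the 2-mutation hairpin and 30.3, 36.2, 38.1 and 37.5 CPM with the 5-mutation hairpin. Every hairpin library lay below every empty-vector library, and the 2-mutation libraries lay below the rest. Grm3 fell 2.27-fold with the 2-mutation hairpin (log2 fold change −1.18 ± 0.07, SE; edgeR adjusted p = 1.46e-12). The falls with the unmutated and 5-mutation hairpins were smaller, −0.37 ± 0.07 (adjusted p = 0.000106) and −0.41 ± 0.07 (adjusted p = 2.06e-05), the latter −0.42 without replicate 2. Between those hairpins no difference passed the test, with a 95% interval of −0.16 to 0.10, whereas the 2-mutation level was below the unmutated one by a log2 fold change of −0.81 (adjusted p = 8.98e-10).

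Because astrocytes make Grm3 and Grm5, their markers are given beside these falls. In bulk RNA, fewer cells of a type and less RNA per cell cannot be told apart. The 7 astrocyte markers summed to 254 to 402 CPM with the empty vector, and to 277 to 492, 178 to 310 and 104 to 261 CPM with the unmutated, 2-mutation and 5-mutation hairpins. None of the 7 was called higher with any hairpin, and 1, 4 and 1 were called lower in the same order. Over all genes 20.8%, 32.5% and 28.4% were called higher and 19.5%, 30.8% and 26.5% lower. Each hairpin's range of marker sums overlapped that of the empty vector, and the markers' part in the receptors' falls was not tested.

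Group III is represented by Grm4, Grm7 and Grm8, which encode presynaptic receptors. Grm8 (ENSMUSG00000024211.15; chromosome 6, 27275119 to 28135178, minus strand) encodes mGlu8 and was the least abundant member. It was measured at 6.83, 6.58, 6.34 and 6.21 CPM with the empty vector, from 221 to 287 counts, and at 7.98, 7.97, 10.6 and 6.16 CPM with the unmutated hairpin. In the 2-mutation group it was at 5.33, 4.96, 6.23 and 5.93 CPM, and with the 5-mutation hairpin at 23.6, 20.6, 18.4 and 16 CPM. Only the 5-mutation libraries stood apart, all above the highest of the other 12. Grm8 rose 3.04-fold there, with 1.60 ± 0.13 on the log2 scale (SE; edgeR adjusted p = 4.73e-09), or 1.58 without replicate 2, and 2.57% of all genes had a rise at least as large. It was 1.27 higher than with the unmutated (adjusted p = 8.82e-08) and 1.81 higher than with the 2-mutation hairpin (adjusted p = 4.15e-10). With the unmutated hairpin its value was 0.33 ± 0.14 (adjusted p = 0.0628), which lay close to the threshold and crossed it under 5 of 16 alternatives. With the 2-mutation hairpin it was −0.21 ± 0.14 (adjusted p = 0.211).

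The promoter windows of Grm2 and Grm8 are shown because these transcripts rose together with the 5-mutation hairpin. Each is the 250 bases before an annotated transcript start (RefSeq, GRCm38.p6, minus strand, read 5′ to 3′), and capitals mark the GC box GGGCGG, searched on both strands, a motif bound by Sp family factors. Grm2 is from chr9:106656110-106656359 and Grm8, of 3 annotated starts the one farthest upstream, from chr6:28135147-28135396.
Grm2: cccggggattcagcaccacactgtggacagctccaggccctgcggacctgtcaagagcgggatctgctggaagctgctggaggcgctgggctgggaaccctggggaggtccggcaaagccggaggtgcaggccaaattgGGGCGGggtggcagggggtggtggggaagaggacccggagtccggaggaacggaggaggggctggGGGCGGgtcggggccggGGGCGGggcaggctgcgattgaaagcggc
Grm8: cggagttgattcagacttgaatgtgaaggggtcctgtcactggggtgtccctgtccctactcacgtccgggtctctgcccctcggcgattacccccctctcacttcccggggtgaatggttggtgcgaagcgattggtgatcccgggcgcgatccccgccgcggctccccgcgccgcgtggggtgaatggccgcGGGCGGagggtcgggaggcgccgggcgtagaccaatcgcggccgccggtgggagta
The Grm2 window held 3 GC boxes and the Grm8 window 1, and 32.7% of 32851 windows of this length in the table held at least 1. The windows held 16 CG dinucleotides in Grm2 and 29 in Grm8 against a median of 6, and 74.6% and 93.2% of all windows had fewer. The other 2 Grm8 windows held 8 and 2, with fewer in 57.0% and 18.8% of windows. Neither window held the TATA box TATAAA (found in 12.4% of windows), the cAMP response element TGACGTCA (1.55%) or the E-box CANNTG (66.2%), each searched on both strands. Grm3 and Grm7, which did not rise, each had 1 GC box in every window listed, and the other 2 windows of Grm8 had none.

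Grm4 encodes mGlu4, best known from parallel fibre terminals of the cerebellum (ENSMUSG00000063239.17; chromosome 17, 27422387 to 27521403, minus strand). Its levels were 22.4, 24.7, 22.5 and 24.0 CPM with the empty vector and 19.6, 23.2, 22.4 and 19.8 CPM with the unmutated hairpin. They were 25.9, 33.0, 28.1 and 30.7 CPM with the 2-mutation hairpin and 26.3, 27.5, 27.9 and 27.0 CPM with the 5-mutation hairpin. The libraries of both mutated hairpins lay above those of the empty vector and the unmutated hairpin. Grm4 rose modestly with the 2-mutation hairpin (log2 fold change 0.33 ± 0.07, SE; edgeR adjusted p = 0.000215) and the 5-mutation hairpin (0.22 ± 0.07, adjusted p = 0.0101; 0.21 without replicate 2). Its value with the unmutated hairpin was −0.14 ± 0.07 (adjusted p = 0.12), and it was below the 2-mutation hairpin by 0.47 (adjusted p = 3.03e-06) and below the 5-mutation hairpin by 0.36 (adjusted p = 0.000136). The mutated hairpins did not differ past the threshold, with a 95% interval of −0.25 to 0.02 for the 5-mutation minus the 2-mutation hairpin.

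Grm7 encodes mGlu7, the receptor of presynaptic active zones. The gene (ENSMUSG00000056755.13) spans chromosome 6 from 110645581 to 111567230 on the plus strand. Its levels were 109, 106, 106 and 108 CPM with the empty vector and 108, 107, 131 and 108 CPM with the unmutated hairpin. They were 110, 102, 108 and 108 CPM with the 2-mutation hairpin and 91.9, 89.3, 83.0 and 83.2 CPM with the 5-mutation hairpin. The 5-mutation libraries lay below all others, and replicate 3 of the unmutated hairpin stood above. Grm7 fell with the 5-mutation hairpin, with −0.31 ± 0.05 on the log2 scale (SE; edgeR adjusted p = 5.3e-05) against the empty vector, −0.32 without replicate 2, and −0.39 against the unmutated hairpin (adjusted p = 2.56e-06). Its 95% interval for the 2-mutation hairpin against the empty vector was −0.11 to 0.10 (adjusted p = 0.951). With the unmutated hairpin the value was 0.08 ± 0.05 (adjusted p = 0.252), and 0.0063 without replicate 3.

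Between hairpins, 1 member was called higher and 3 lower with the 2-mutation against the unmutated hairpin, beside 62.7% of all genes called (31.5% higher and 31.2% lower). With the 5-mutation against the unmutated hairpin 3 were higher and 2 lower, beside 55.3% (28.5% higher and 26.8% lower). With the 5-mutation against the 2-mutation hairpin 4 were higher and 1 lower, beside 65.9% (33.6% higher and 32.3% lower), and the members' median log2 fold change was 1.24 beside 0.05 for all genes. The 4 called higher were Grm3 at 0.78, Grm5 at 1.70, Grm2 at 1.71 and Grm8 at 1.81. Grm8 was also lower with the 2-mutation than with the unmutated hairpin (−0.54, edgeR adjusted p = 0.00212), although their libraries overlapped.

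Grm5 led the receptor transcripts in every group except the 2-mutation hairpin. Levels between genes are compared per length, as CPM per kilobase of merged exons. With the empty vector Grm5 stood at 48.5 CPM per kilobase, followed by Grm7 at 18.2 and Grm3 at 15.4, with no overlap of libraries between neighbours. Grm4 at 3.91 and Grm2 at 3.24 overlapped, and Grm8 came last at 0.656, a level that counts the long exon of a non-coding Grm8 transcript in its length. The unmutated hairpin kept this order. With the 2-mutation hairpin Grm7 led at 18.2 CPM per kilobase, followed by Grm5 at 9.78 and Grm3 at 6.80, again with no overlap. With the 5-mutation hairpin Grm5 led again at 31.7, and Grm2 at 8.75 stood above Grm4 at 4.55, with no overlap of libraries.

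Of the summed level per length of the 6 receptor genes, Grm5 made up 53.8 ± 2.08% with the empty vector and 48.4 ± 2.47% with the unmutated hairpin. Its share was 22.8 ± 0.759% for the 2-mutation and 43.1 ± 3.01% for the 5-mutation hairpin (SD, n = 4). The share of Grm7 was 20.3 ± 1.06%, 25.8 ± 1.8%, 42.3 ± 0.739% and 20.1 ± 1.66% in the same order, while its own level with the 2-mutation hairpin was 107 CPM, as with the empty vector. The share of Grm2 was 3.62 ± 0.778% with the empty vector and 12.0 ± 1.37% with the 5-mutation hairpin, and that of Grm8 0.73 ± 0.0571% and 2.72 ± 0.538%. Grm6 had 0 to 2 counts in any library and was not tested.

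**Figure D4:**
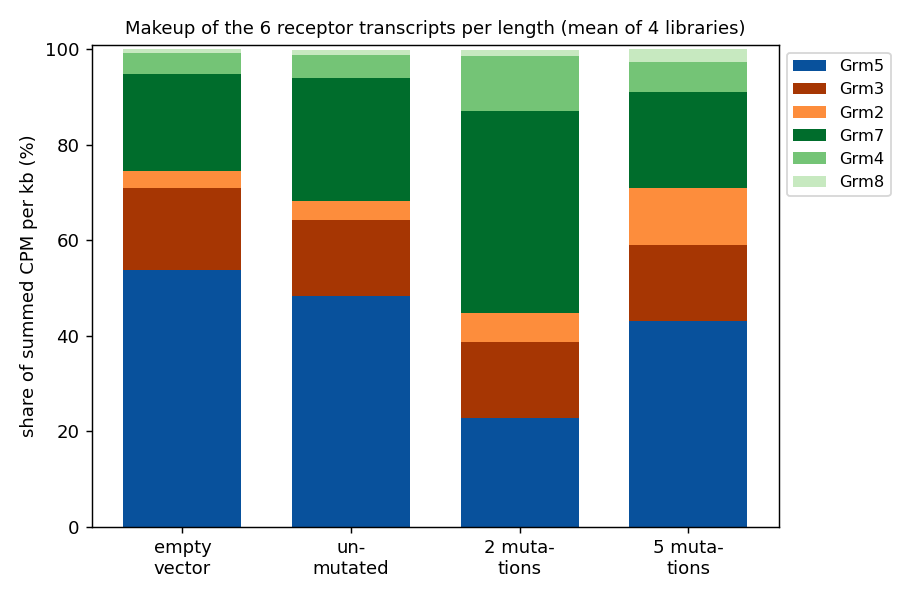
Share of each receptor gene in the summed level per length of the 6 receptor genes (percent, mean of 4 libraries per group, stacked). Grm5 takes 53.8% with the empty vector and 22.8% with the 2-mutation hairpin, where Grm7 takes 42.3%.

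Genes of the Gq cascade act downstream of group I receptors. Of 12 measured, 2 were called higher and 5 lower with the unmutated hairpin, and 2 higher and 7 lower with each mutated hairpin. Over all genes 20.8% were higher and 19.5% lower with the unmutated, 32.5% and 30.8% with the 2-mutation, and 28.4% and 26.5% with the 5-mutation hairpin, and lower was not tested against higher within the list. The list's median log2 fold changes were 0.04, −0.39 and −0.21, beside 0.01, −0.01 and 0.03 over all genes. Itpr1, the calcium release channel of internal stores, fell with every hairpin, with log2 fold changes of −0.36 ± 0.04, −1.41 ± 0.04 and −0.19 ± 0.04 for the unmutated, 2-mutation and 5-mutation hairpins (SE; edgeR adjusted p = 6.15e-07, 2.93e-17 and 0.000479). The 2-mutation level was 63.7 CPM against 169 CPM in the control. Plcb4, a phospholipase C, fell with the 2-mutation hairpin (−1.25, adjusted p = 1.03e-11) and further with the 5-mutation hairpin (−2.50 ± 0.09, adjusted p = 7.98e-16). Its value with the unmutated hairpin was 0.10 (adjusted p = 0.35). Prkcb, a protein kinase C, rose with the unmutated hairpin (0.14, adjusted p = 0.00951). It fell with the 2-mutation hairpin (−0.77, adjusted p = 2.4e-13) and further with the 5-mutation hairpin (−1.35 ± 0.04, adjusted p = 4.96e-17). Dagla, which makes the endocannabinoid 2-arachidonoylglycerol, fell with each hairpin (−0.12, −0.42 and −0.49, adjusted p = 0.0329, 1.94e-08 and 3.12e-09). Dgkz, a diacylglycerol kinase, rose with the unmutated and 5-mutation hairpins (0.38 and 0.22) and fell with the 2-mutation hairpin (−0.49).

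The scaffolds that hold group I receptors at the postsynaptic density had medians of −0.15, −0.51 and −0.21 over 10 genes. With the unmutated hairpin 1 was called higher and 4 lower, with the 2-mutation hairpin 2 and 6, and with the 5-mutation hairpin 1 and 4, beside shares of 40.3%, 63.3% and 54.9% called over all genes. Frmpd4, which binds Homer and mGlu5, fell from 137 to 31.4 CPM with the 2-mutation hairpin, with −2.13 ± 0.06 on the log2 scale (SE; edgeR adjusted p = 1.72e-18). With the unmutated and 5-mutation hairpins its falls were −0.35 and −0.17 (adjusted p = 1.22e-05 and 0.00721). Shank1 and Shank3, core scaffolds of excitatory synapses, fell with the 2-mutation hairpin (−1.61 ± 0.06 and −0.97 ± 0.05, adjusted p = 2.35e-16 and 6.46e-14). With the unmutated and 5-mutation hairpins Shank1 fell too (−0.39 and −0.71, adjusted p = 6.09e-06 and 2.89e-10). Shank3 stood there at −0.12 and −0.27 (adjusted p = 0.0544 and 4.65e-05). Shank2 also fell in all comparisons with the empty vector (−0.30, −0.28 and −0.45), by less than Shank1 and Shank3 with the 2-mutation hairpin. Homer1, the adaptor between mGlu5 and Itpr1, rose with the 5-mutation hairpin (0.53 ± 0.06, adjusted p = 4.88e-08), and its values with the others were −0.08 and −0.05. Of 6 genes tied to receptor-driven synaptic depression, Fmr1, whose protein restrains local translation, fell with each hairpin (−0.31, −0.78 and −0.17, adjusted p = 0.000131, 5.71e-11 and 0.0148). Camk2a, the postsynaptic calcium-dependent kinase, fell likewise (−0.24, −1.07 and −0.91, adjusted p = 0.00113, 1.06e-13 and 3.36e-12). Map1b, a microtubule protein translated in response to group I receptors, fell with the unmutated and 5-mutation hairpins (−0.61 and −0.59) and rose with the 2-mutation hairpin (0.48). Arc, also among these genes, rose with every hairpin (1.39, 1.09 and 1.08, adjusted p = 0.000152, 0.000585 and 0.000799). The 6 genes were called 2 higher and 4 lower with the unmutated and 2 higher and 3 lower with each mutated hairpin, against the same shares over all genes.

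Among 14 genes of the Gi/o cascade used by group II and III receptors, 4 were called higher and 4 lower with the unmutated hairpin, 6 and 7 with the 2-mutation, and 6 and 8 with the 5-mutation hairpin, where 40.3%, 63.3% and 54.9% of all genes were called in either direction. With the 5-mutation hairpin the G protein subunits parted: Gnao1, the main neuronal Go subunit, fell from 891 to 270 CPM (log2 fold change −1.72 ± 0.04, SE; edgeR adjusted p = 4.31e-19), and Gnai3 rose from 68.4 to 135 CPM (0.98 ± 0.05, adjusted p = 9.1e-14). Kcnj9 and Kcnj6, potassium channel subunits opened by Gi/o proteins, fell with every hairpin. The values were −0.86, −0.96 and −0.90 for Kcnj9 and −0.62, −0.68 and −0.58 for Kcnj6, all on the log2 scale. Adcy3, an adenylyl cyclase, rose with every hairpin (0.32, 0.67 and 0.33), but 22.1% of its exon bases overlap Cenpo on the opposite strand.

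Of 6 partners of the presynaptic group III receptors, 0 were called higher and 4 lower with the unmutated hairpin, and 3 higher and 2 lower with each mutated hairpin, beside shares of 40.3%, 63.3% and 54.9% called over all genes. Elfn1, a postsynaptic adhesion protein that recruits mGlu7 across the synapse onto certain interneurons, fell from 17.8 to 6.72, 7.55 and 6.81 CPM with the unmutated, 2-mutation and 5-mutation hairpins (log2 fold changes −1.41, −1.24 and −1.38 ± 0.12, SE; edgeR adjusted p = 1.04e-08, 1.17e-08 and 4.05e-09). The 8 inhibitory neuron markers summed to 587 to 664 CPM with the empty vector, against 157 to 286, 190 to 280 and 267 to 350 CPM with the hairpins, and their part in the fall of Elfn1 was not tested. Of these markers 7 were called lower and none higher with the unmutated and the 5-mutation hairpin, and 5 lower and 2 higher with the 2-mutation hairpin. Among them Dlx2 was at 3.7 to 4.15 CPM with the empty vector and 6.57 to 10.0 CPM with the 2-mutation hairpin, and Dlx5 at 4.33 to 4.99 and 6.63 to 9.08 CPM. The ranges of Sst overlapped between the empty vector and the 5-mutation hairpin. Elfn2, the paralog of Elfn1, fell with each hairpin too (−0.17, −0.25 and −0.82, adjusted p = 0.00399, 3.24e-05 and 8.78e-13). Sdcbp, the scaffold syntenin, fell with the unmutated hairpin (−0.94) and rose with the mutated ones (0.80 and 1.13, adjusted p = 1.11e-12 and 7.66e-15). Arrb1, a beta-arrestin that uncouples receptors, fell with every hairpin (−0.65, −0.97 and −0.91, adjusted p = 5.2e-12, 8.14e-16 and 4.79e-15). Grk3 and Grk5, receptor kinases, fell with the unmutated (−0.32 and −0.34) and further with the 2-mutation hairpin (−1.22 and −1.06). With the 5-mutation hairpin Grk3 rose by 0.16 (adjusted p = 0.0108) and Grk5 was at 0.09 (adjusted p = 0.309). Grk6, also a receptor kinase, rose with every hairpin (0.20, 0.13 and 0.34, adjusted p = 0.00057, 0.00882 and 3.98e-07). Rgs2 (0.54, 2.16 and 0.99) and Rgs4 (0.51, 0.96 and 0.81), also among the desensitization genes, were called higher with every hairpin too. Of 8 desensitization genes, 4 were called higher and 3 lower with the unmutated, 3 and 4 with the 2-mutation and 4 and 3 with the 5-mutation hairpin, next to 40.3%, 63.3% and 54.9% of all genes called.

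Of 8 genes of glutamate release, synthesis and clearance, 2 were called higher and 2 lower with the unmutated, 2 and 3 with the 2-mutation and 3 and 3 with the 5-mutation hairpin, with 40.3%, 63.3% and 54.9% called over all genes. Slc17a7, the vesicular glutamate transporter typical of cortical excitatory terminals, fell from 612 to 81.7 CPM with the 5-mutation hairpin (log2 fold change −2.90 ± 0.05, SE; edgeR adjusted p = 3.78e-20), the group in which Grm2 and Grm8 rose. Slc17a6 and Slc17a8, the other vesicular glutamate transporters, rose there by 1.62 ± 0.15 and 1.39 ± 0.15 (adjusted p = 2.7e-07 and 6.33e-08). With the 2-mutation hairpin Slc17a6 rose by 2.38 ± 0.15 (adjusted p = 2.72e-09). The 6 excitatory neuron markers, which include Slc17a7 and Slc17a6, summed to 1087 to 1175 CPM with the empty vector and 594 to 656 CPM with the 5-mutation hairpin, where 1 was called higher and 3 lower. For the 2-mutation hairpin they summed to 1463 to 1563 CPM, with 5 called higher and none lower. The part of these markers in the receptors' changes was not tested. Slc1a2, the main glial glutamate transporter, fell with each hairpin (−0.65, −0.32 and −0.86). The peptide N-acetylaspartylglutamate is an agonist of mGlu3, and of its 3 measured enzymes the synthases Rimkla and Rimklb had log2 fold changes of 0.61 and −0.65 with the 2-mutation hairpin (adjusted p = 1.1e-08 and 1.11e-11). The hydrolase Folh1 was below 1 CPM in every group mean.

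**Figure D5:**
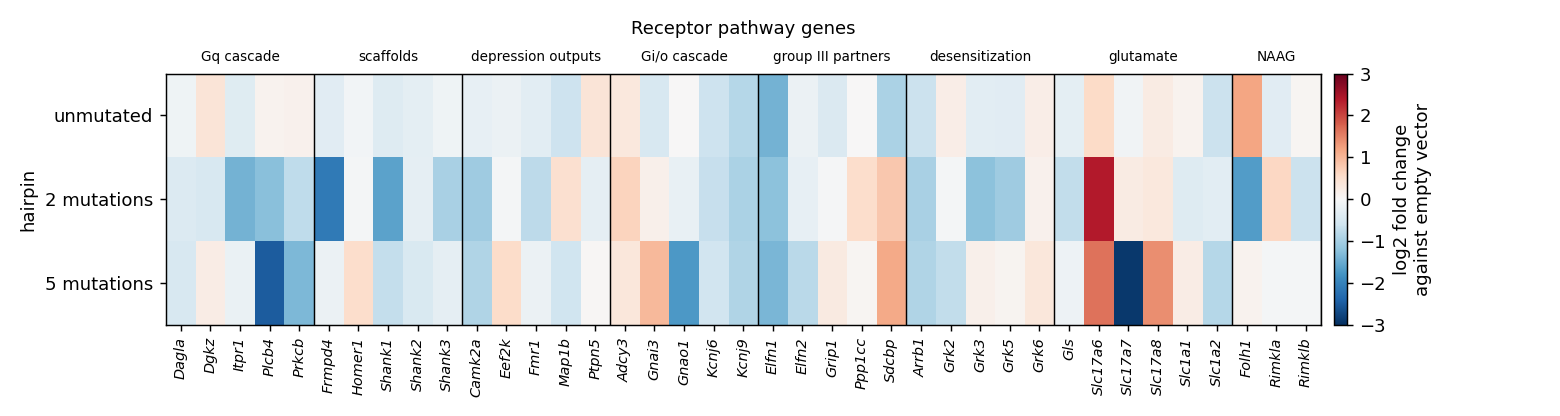
Log2 fold change against the empty vector (colour) of genes of the receptor pathways, grouped by role, for the 3 hairpins. Frmpd4 and Itpr1 have their lowest values with the 2-mutation hairpin (−2.13 and −1.41), and Slc17a7, Plcb4 and Gnao1 theirs with the 5-mutation hairpin (−2.90, −2.50 and −1.72).

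The transcripts whose levels followed each receptor most closely over the 16 libraries, among 10722 protein-coding genes, are given as a description. The libraries share 4 group means, which dominate such correlations. Grm5 was followed by Pcdhb19, a clustered protocadherin, Akap6, an anchor of protein kinase A, and Osbpl8, a lipid transfer protein (Pearson r 0.995, 0.993 and 0.993). Grm3 was followed by Amotl2, Lmbr1 and Klhl5 (0.987, 0.986 and 0.986), which had log2 fold changes of −1.40, −1.03 and −1.50 with the 2-mutation hairpin. Grm2 was followed by Snx7, a sorting nexin, Retreg1, a receptor for autophagy of the endoplasmic reticulum, and Hs6st3, a heparan sulfate sulfotransferase (0.980, 0.973 and 0.970), and Grm8 by Actn2, an actin cross-linker of dendritic spines, Pcbp4, an RNA-binding protein, and Hip1r, which links clathrin to actin (0.983, 0.973 and 0.973). Likeness was lower for Grm7, with Chrm1, the M1 muscarinic receptor, at 0.922, Zdhhc5 at 0.919 and Adam11 at 0.918. It was lower too for Grm4, with Ric8b, Elmod2 and Pan2 at 0.919, 0.906 and 0.903.

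The libraries were made to keep strand, but whether counting used it is not given in the sources used here, so reads of overlapping genes on opposite strands may not have been told apart. Grm2 shares 470 exon bases with the antisense entry Gm28111, which had at most 1 count in any library. Grm7 shares 130 with Gm20387, which had 57 to 139 counts against at least 2986 for Grm7. Mir592, the gene of a microRNA, lies within an exon of a non-coding Grm8 transcript and was listed at 0 in all libraries. It shares 96 exon bases with Grm8 on the same strand, so the 0 does not show that the microRNA was absent.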

How the data were processed

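RNA-seq was deposited as a table of raw read counts per gene, which the authors made with featureCounts. Per the submitters' processing notes, STAR 2.7.2b on GRCm38.p6, cutadapt 1.15, Trim Galore 0.6.0, bcl2fastq 2.20.0.422, featureCounts and edgeR were used. The annotation release, strand setting and treatment of reads with several matches are not given in the sources used here. Per the labels' protocols, libraries were directional (dUTP) after ribosomal RNA depletion.

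Symbols, positions and exon lengths came from GENCODE vM21: of 55335 gene IDs, 55154 matched and 181 did not. Counts were fitted in edgeR 4.0.16 (R 4.3.3), with filterByExpr, TMM scaling, 1 coefficient per group, robust quasi-likelihood over all 16 libraries, and 2-sided contrasts. SE is the log2 fold change divided by the square root of F, and 95% intervals are 1.96 SE either side. CPM are TMM-scaled. The pipeline was tested on simulated data. Single values were compared by exact 2-sided permutation. DESeq2 1.42.0 was an alternative.

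The members, lists and markers were chosen with earlier results of these data known. Named from each list are all genes of lists of up to 4, otherwise those with the 3 smallest p in each comparison with the empty vector, and for likeness the 3 highest Pearson r of log2 CPM (prior count 2). Replicate numbers are not stated to mark a shared culture, so libraries were not paired. Some genes that meet this rule are not reported here. Protein sequences and a genome were not used here. Other analyses used Python 3.11.15, numpy 2.4.6, pandas 2.3.3, scipy 1.17.1 and matplotlib 3.10.9.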

Additional observations from a re-analysis of the deposited data

Results flagged for a closer look

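Replicate 3 of the unmutated hairpin was high for Grm7, at 131 CPM, while the other 3 libraries of its group lay at 107 to 108 CPM, so that its gap to the nearest library was 0.971 of the group's range. The same library had the group's highest Grm2 and Grm8, 20.1 and 10.6 CPM. Without it the log2 fold changes of Grm7, Grm2 and Grm8 against the empty vector were 0.0063, −0.30 and 0.18, and none passed the test in edgeR (adjusted p = 0.925, 0.0711 and 0.256). It was the only such value among 36 groups of 4 values examined, and chance alone flags about 1 in 20.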

How the results depend on the processing

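Each member's 6 fold changes were recomputed under 16 alternatives: RLE or upper-quartile scaling, no filter on low counts, DESeq2, a fit of only the 2 groups compared, a replicate block, protein-coding genes only, the table without Gm26917 and Gm42418, and each library of the groups compared left out in turn. Of these 576 values, 553 kept their direction and their side of the threshold. All 6 members remained called with the 5-mutation hairpin against the empty vector, as did Grm3 and Grm5 with the other hairpins and Grm4 with the 2-mutation hairpin.

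A total of 6 values changed sign, none of them called: on leaving out 1 library, Grm2 with the unmutated hairpin against the empty vector became 0.011 (range −0.30 to 0.011), Grm7 with the 2-mutation hairpin 0.0058 or 0.017 (range −0.017 to 0.017), Grm2 with the 2-mutation against the unmutated hairpin 0.028 (range −0.29 to 0.028), and Grm3 with the 5-mutation against the unmutated hairpin 0.018 or 0.037 (range −0.068 to 0.037). Calls gained were those of Grm8 with the unmutated hairpin (adjusted p from 0.0043 to 0.0486 under 5 alternatives), Grm4 there under the replicate block (0.0461), Grm2 with the 2-mutation hairpin (0.000457 with no filter, 0.00876 with only 2 groups) and Grm8 there (0.023 with only 2 groups). Grm7 with the 2-mutation against the unmutated hairpin (0.0411 with protein-coding genes only) and Grm4 with the 5-mutation against the 2-mutation hairpin (0.031 without 2-mutation replicate 1) were also gained. Grm5 with the 5-mutation against the unmutated hairpin was lost under 6 alternatives (0.0518 to 0.108). The causes were not tested.

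Members called with the unmutated hairpin against the empty vector numbered 4 under the replicate block, against 2 without it, and those with the 2-mutation hairpin 5 with only the 2 groups fitted, against 3. Calls over all 19479 genes moved too. With the unmutated hairpin 4442 were higher and 4147 lower under the block, against 4054 and 3805. With the 2-mutation hairpin 6129 were higher and 6773 lower with only the 2 groups fitted, against 6332 and 5992. The scaffold list had 8 calls with the unmutated hairpin under the replicate block, against 5, and with the 5-mutation hairpin 8 under the block and 9 with protein-coding genes only, against 5. Over all genes with the 5-mutation hairpin, 5784 were higher and 5387 lower of 19479 under the block, against 5540 and 5157. With protein-coding genes only, 4724 were higher and 4850 lower of 14470. The glutamate list had 8 calls with the 2-mutation hairpin with no filter, against 5. Without that filter 6605 were higher and 6362 lower of 39067 genes. Deviations from group means correlated at −0.0215 to 0.272 (median 0.0989) over 24 same-numbered pairs of libraries, 12 of them over 0.1, and at a median of −0.032 over 72 other pairs, 4 of them over 0.1. Of 16 libraries, 15 correlated best with their own number. The libraries thus shared structure by replicate number in the data, which the stated design does not explain. The main fit and the permutation tests did not account for it. As not every same-numbered pair passed 0.1 and the labels state no shared culture, libraries were not paired, and the replicate block is given here alone. Depth limits Grm8 most, at 200 to 287 counts per library with the empty vector and 2-mutation hairpin.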
